A study of Rattus norvegicus with 18 samples.

Results

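The salt-inducible kinases and the genes around the transcription factor CREB were followed as 10 named genes: the kinases Sik1, Sik2 and Sik3, the factors Creb1 and Crem, the coactivators Crtc1, Crtc2 and Crtc3, and the phosphodiesterases Pde4b and Pde4d. They were picked as rows of the deposited table by gene symbol, and 8 of the 10 had a row among 17312 genes. Sik2 and Crtc3 had none, so their expression is not analysed here and only the sequences around their starts are counted below. All 8 had an estimate above 0 in every group. Their means over groups were 1 FPKM or more (fragments mapped to a gene, scaled by its transcript length in kilobases and by library size). A mean of that size was reached by 10545 genes in all. The set was chosen by the measured difference of Sik1 at 4 h of phenylephrine in vehicle, one of the largest of all genes, so values of that contrast are a description here. Every other comparison with the vehicle group at 4 h or 0 h shares libraries with it and is a description too.

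The cells were neonatal rat ventricular myocytes (NRVM), heart muscle cells cultured from 2-day-old Sprague-Dawley pups and kept without serum before treatment. They received vehicle or SR9009, a synthetic agonist of the REV-ERB nuclear receptors, for 24 h, and then phenylephrine (PE), an α1-adrenergic agonist that enlarges cardiac myocytes. The 6 groups were vehicle at 0, 4 and 48 h of PE and SR9009 at 0, 4 and 48 h of PE, with 3 libraries each. The authors combined the 3 libraries and deposited a single FPKM per gene for each, along with confidence bounds, so no value has a standard deviation and no difference was tested. The labels do not say whether the 3 libraries came from separate cultures. No group was cultured for 4 or 48 h without PE, so PE and time in culture cannot be told apart within an arm. Neither the dose of SR9009 nor that of PE is given in the sources used here.

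Salt-inducible kinases are relatives of the energy sensor AMPK, are switched on by the kinase LKB1, and phosphorylate CRTC coactivators and class IIa histone deacetylases, which keeps both in the cytoplasm. Cyclic AMP acts through protein kinase A (PKA), which inhibits the SIKs and phosphorylates CREB. CRTC proteins then enter the nucleus and help CREB switch on genes with a cyclic AMP response element (CRE), SIK1 among them. CREM is a close relative of CREB, and an internal start of its gene gives the short repressor ICER, which closes a feedback loop. PDE4 enzymes break down cyclic AMP and are a main part of that activity in rodent myocytes.

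The start regions of the members with the largest differences are shown because CREB acts through the palindrome TGACGTCA, the full CRE, or through its first bases TGACG, called the short CRE here. They are the 250 bases upstream of each start, 5′ to 3′ along the gene, from RefSeq promoters on build GRCr8. Capitals mark short and full CREs on either strand. A short CRE on the opposite strand reads CGTCA, and each full CRE also counts as a short CRE on both strands.
Sik1, chr20:9958647-9958896, minus strand: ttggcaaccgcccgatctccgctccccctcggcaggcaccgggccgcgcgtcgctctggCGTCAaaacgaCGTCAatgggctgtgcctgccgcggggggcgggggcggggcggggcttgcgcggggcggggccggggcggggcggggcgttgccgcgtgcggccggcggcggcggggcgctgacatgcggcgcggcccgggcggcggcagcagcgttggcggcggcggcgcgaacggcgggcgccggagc
Crem start 1, chr17:58933816-58934065, plus strand: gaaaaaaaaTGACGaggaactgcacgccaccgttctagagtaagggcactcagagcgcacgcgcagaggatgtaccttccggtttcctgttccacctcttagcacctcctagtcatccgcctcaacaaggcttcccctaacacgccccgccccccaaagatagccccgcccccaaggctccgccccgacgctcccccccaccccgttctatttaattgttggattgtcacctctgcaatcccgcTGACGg
Crem start 2, chr17:58984547-58984796, plus strand: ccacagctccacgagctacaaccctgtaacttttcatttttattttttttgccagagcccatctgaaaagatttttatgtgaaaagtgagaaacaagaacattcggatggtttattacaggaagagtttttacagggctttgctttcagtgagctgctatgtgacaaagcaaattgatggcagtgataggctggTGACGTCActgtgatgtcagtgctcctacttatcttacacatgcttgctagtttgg
Crem start 3, chr17:58985240-58985489, plus strand: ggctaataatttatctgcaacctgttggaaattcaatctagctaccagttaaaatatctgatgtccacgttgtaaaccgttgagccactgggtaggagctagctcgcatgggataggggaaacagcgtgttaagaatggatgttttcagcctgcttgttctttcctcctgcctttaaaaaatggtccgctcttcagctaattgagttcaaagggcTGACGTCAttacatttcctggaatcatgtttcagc

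Sik1 carried 2 short CREs on the opposite strand, at -191 to -187 and -180 to -176 from its start, and no full CRE. RefSeq lists 3 starts for Crem. Window 1 had short CREs at -241 to -237 and -6 to -2. Window 2 had a full CRE at -56 to -49, and window 3 had full CREs at -35 to -28 and, past the printed part, at 40 to 47. Windows ran from 250 bases before to 50 after the start, 300 in all. Over 33469 such windows in the table, 1.83% held a full CRE and 21.2% a short CRE. Among the 18 windows of all 10 members, Crem alone held the full CRE, in 2 windows, while a short CRE occurred in 10 windows of 7 genes. Neither of the 2 Pde4b windows held these letters. Searched on both strands, the CRE variant TGACGCAA was in 0.496% of all windows and in no member window. The core of the REV-ERB response element, AGGTCA, was in 16.2% of all windows and in 1 window each of Sik3 and Creb1. The E-box CACGTG was in 6.42% of all windows and in that of Sik3. These letter matches are descriptions of the windows and not evidence of binding.

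Group values were subtracted as log2(FPKM + 1), a scale that shrinks the differences of low genes, and each difference is followed in parentheses by its extremes when both values move to their bounds. Being called higher or lower takes a size of 1 or more (2-fold) with both extremes on the same side of 0. This is a rule of size and not a test. The members' bounds lay 11.6% to 24.8% from the value. Depth is unknown, and total FPKM was lowest in vehicle at 0 h (609018) and highest in vehicle at 48 h (710198). Because these are bulk RNA values, fewer cells of a type and less RNA per cell cannot be told apart. Cardiomyocyte markers dominated: 9 markers summed to between 14113 FPKM (SR9009, 0 h) and 44372 (vehicle, 48 h). Myh6 was left out of the sum because some groups had no estimate for it. Fibroblast markers, 10 genes with Col1a2 listed at 0 throughout, summed to between 939 and 2098, and 6 smooth muscle markers to between 824 and 1920. The 8 endothelial markers lay between 46.8 and 69.1 and the 9 macrophage markers between 14.9 and 49.1.

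Sik1, the salt-inducible kinase whose own gene responds to cyclic AMP (chromosome 20, 10670747 to 10680279, rn6), spanned the widest range of the members. In vehicle it stood at 10.9 FPKM at 0 h (bounds 9.06 to 12.7), at 160.4 at 4 h (137 to 184) and at 70.4 at 48 h (59.7 to 81.0). With SR9009 the levels were 11.9 (10.0 to 13.8), 96.4 (82.1 to 111) and 27.5 (23.2 to 31.7). In order of level the groups ran vehicle 4 h, SR9009 4 h, vehicle 48 h, SR9009 48 h, SR9009 0 h and vehicle 0 h, and only the bounds of the 2 groups at 0 h overlapped. Sik1 thus passed from position 6552 among all genes of the vehicle group at 0 h to position 693 at 4 h. The table gives it 1 transcription start, and no other listed gene overlapped its locus.

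**Figure D1:**
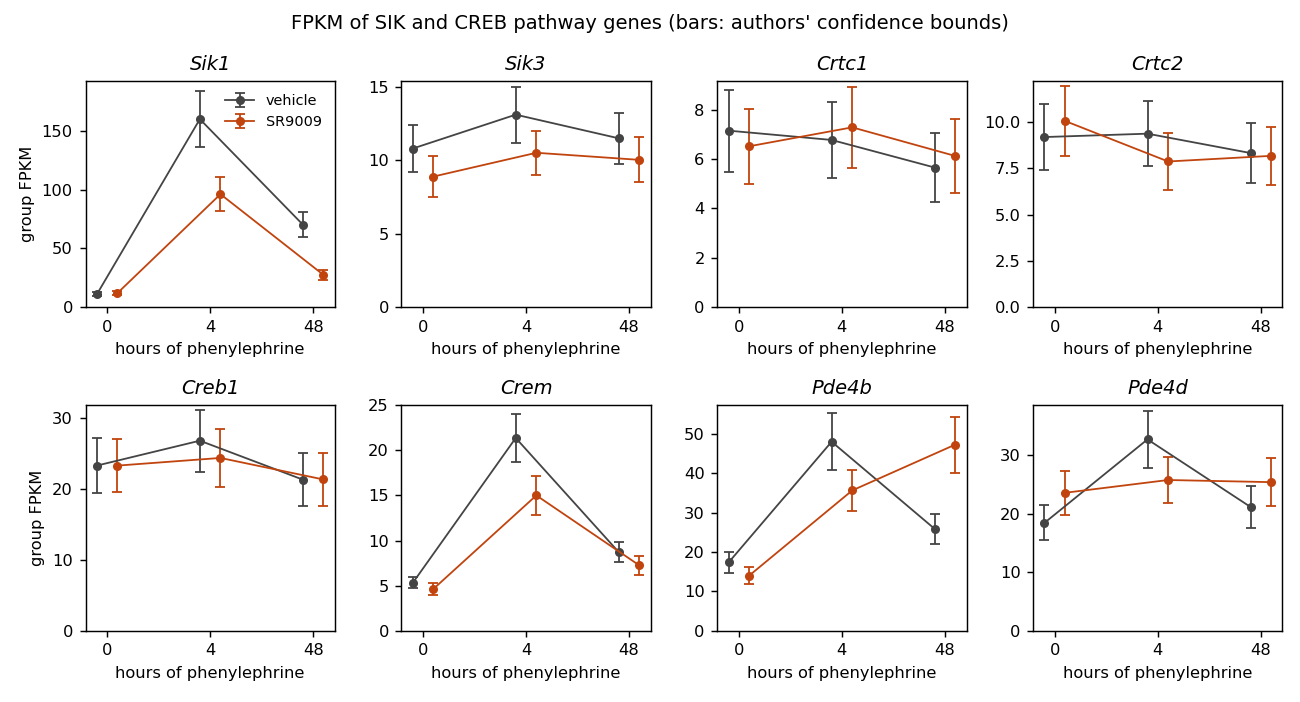
FPKM of the 8 measured genes (vertical axes, from 0, scaled per gene) by hours of phenylephrine (horizontal axis, evenly spaced), for vehicle in grey and SR9009 in orange; bars are the authors' confidence bounds, each point combining 3 libraries. Sik1 and Crem peak at 4 h in both arms, and Pde4b is at 47.3 FPKM at 48 h with SR9009 against 25.9 with vehicle. Creb1, Crtc1, Crtc2 and Sik3 stay within overlapping bounds from one level to the next, though the highest and lowest levels of Sik3 do not overlap.

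Of the other kinase, Sik3, levels lay between 8.88 FPKM (SR9009, 0 h) and 13.1 (vehicle, 4 h), a 1.47-fold span. The vehicle values were 10.8, 13.1 and 11.5 FPKM at 0, 4 and 48 h and the SR9009 values 8.88, 10.5 and 10.0. Bounds of each level overlapped those of the next, and no comparison called it. The bounds of its highest level, vehicle at 4 h (11.2 to 15.0), did not overlap those of its lowest, SR9009 at 0 h (7.51 to 10.2). In vehicle at 0 h Sik3 and Sik1 stood at 10.8 and 10.9 FPKM, which compares their levels per length. At 4 h Sik1 was far above it in both arms.

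Crem, the factor that can act as activator or as the repressor ICER (chromosome 17, 57021704 to 57090888, rn6), followed the same order of groups as Sik1 down to 48 h. In vehicle it was at 5.30 FPKM (4.69 to 5.91), 21.4 (18.7 to 24.0) and 8.71 (7.58 to 9.85) at 0, 4 and 48 h. With SR9009 it was at 4.63 (3.96 to 5.29), 15.0 (12.9 to 17.1) and 7.24 (6.23 to 8.26). Both groups at 4 h were above all others without overlap, whereas the bounds of the 2 arms overlapped at 48 h and at 0 h. The table lists 3 starts for the gene and 1 value over them, so the share of ICER in it is not known here.

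Creb1, which encodes CREB itself, had 23.3, 26.8 and 21.3 FPKM in vehicle and 23.3, 24.4 and 21.3 with SR9009 at 0, 4 and 48 h. Its whole span was 1.26-fold. The coactivator Crtc1 had 7.15, 6.77 and 5.66 FPKM in vehicle and 6.52, 7.28 and 6.12 with SR9009. Crtc2, a coactivator best known from liver gluconeogenesis, had 9.19, 9.37 and 8.32 in vehicle and 10.1, 7.87 and 8.17 with SR9009. Spans were 1.29-fold and 1.28-fold, the bounds of neighbouring levels overlapped for all 3 genes, and none was called in any of the 11 comparisons. For Creb1 at 4 h in vehicle the difference was 0.20, and the bounds allowed -0.27 to 0.66.

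The phosphodiesterases differed from one another. Pde4b (chromosome 5, 121759236 to 122136814, rn6) had 17.4 FPKM (14.7 to 20.0), 48.0 (40.8 to 55.3) and 25.9 (22.1 to 29.7) in vehicle at 0, 4 and 48 h. With SR9009 it had 14.0 (11.9 to 16.2), 35.7 (30.6 to 40.8) and 47.3 (40.2 to 54.4). Its level at 48 h with SR9009 therefore lay beside the 4 h vehicle level, with overlapping bounds, and clear of the 48 h vehicle level. Pde4d (chromosome 2, 40219999 to 41464111, rn6) had 18.4 (15.4 to 21.4), 32.7 (27.8 to 37.5) and 21.1 (17.6 to 24.7) in vehicle. With SR9009 it had 23.5 (19.8 to 27.3), 25.7 (21.8 to 29.6) and 25.4 (21.3 to 29.4), 3 values within each other's bounds. The locus of Pde4d overlaps Elovl7 and Mir582 in the table, and whether counting used the strand is not given in the sources used here.

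The first contrast, 4 h of PE against 0 h in vehicle, called 3 of the 8 members higher and 0 lower, where 2.75% of 10418 genes were called higher and 2.32% lower. Since this contrast chose the set, nothing is read from that count. Sik1 differed by 3.77 (3.33 to 4.20), position 3 from the top of all genes, Crem by 1.83 (1.51 to 2.14) and Pde4b by 1.42 (0.995 to 1.84). Pde4d, at 0.79 (0.36 to 1.23), fell short of the size. The 4 others lay between -0.07 (Crtc1) and 0.26 (Sik3).

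The SR9009 arm has its own libraries at 0 and 4 h, apart from those of the contrast that chose the set. The members were chosen with earlier results of these data known, though, so the counts of this arm are a description too. There, too, Sik1, Crem and Pde4b were called higher at 4 h, 3 of 8 members with 0 lower, against 1.83% of 10408 genes higher and 2.65% lower. Sik1 differed by 2.91 (2.49 to 3.34), position 5 from the top, Crem by 1.51 (1.14 to 1.87) and Pde4b by 1.29 (0.88 to 1.70). Pde4d was at 0.12 (-0.31 to 0.55). The median over the 8 members was 0.18, beside -0.06 over all genes, and in vehicle it was 0.53 beside -0.02. Beside these differences, the summed cardiomyocyte markers went from 20456 to 39996 FPKM in vehicle and from 14113 to 28147 with SR9009. Much of this was Actc1, for cardiac actin, from 4918 to 17773 and from 3160 to 10174 FPKM. Gene by gene, 1 of 9 cardiomyocyte markers was called higher in vehicle (median 0.57). With SR9009 it was 3 of 10, Myh6 included (median 0.82). The summed fibroblast markers went from 2098 to 1224 and from 1851 to 939. The part of these shifts in the members' differences was not tested.

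**Figure D2:**
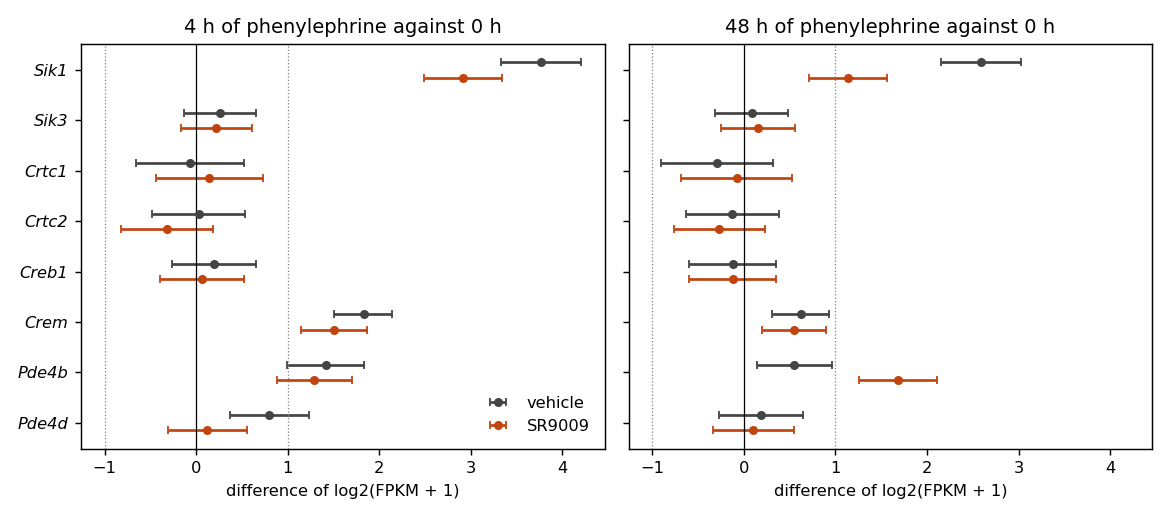
Differences of log2(FPKM + 1) from 0 h (horizontal axis) for each measured gene (vertical axis) at 4 h, left, and 48 h, right; points are group differences in vehicle (grey) and SR9009 (orange), bars the widest range the authors' bounds allow, dotted lines the size of 1 that the rule asks for. At 4 h both arms have Sik1, Crem and Pde4b beyond 1, and at 48 h Sik1 is at 2.59 in vehicle and 1.14 with SR9009 while Pde4b is at 0.55 and 1.68.

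At 48 h of PE Sik1 was still above 0 h in both arms, and Pde4b was called in the SR9009 arm. In vehicle only Sik1 of the 8 was called higher, at 2.59 (2.15 to 3.03), where 4.87% of 10416 genes were called higher and 3.96% lower. Crem at 0.62 (0.31 to 0.93) and Pde4b at 0.55 (0.14 to 0.96) were above 0 by their ranges but below the size. With SR9009 2 of 8 were called higher, against 1.26% of 10409 genes higher and 1.16% lower: Pde4b at 1.68 (1.26 to 2.11), position 20 from the top, and Sik1 at 1.14 (0.71 to 1.57), position 107. Crem was at 0.55 (0.20 to 0.90). No member was called lower in either arm. In vehicle 7 of 9 fibroblast markers were called lower at 48 h (median -1.35) and all 8 macrophage markers were below 0 (median -0.49). With SR9009 5 of 9 cardiomyocyte markers were called higher (median 1.19) and no fibroblast marker was called (median -0.26). The part of these shifts in the members' differences was not tested.

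Set against 4 h, the 48 h levels of Sik1 were lower in both arms and those of Crem in vehicle. In vehicle all 8 members were below 0, where 50.8% of 10415 genes were above 0. Called lower were 2 of the 8, against 2.37% of genes lower and 3.85% higher. They were Crem at -1.20 (-1.55 to -0.86) and Sik1 at -1.18 (-1.61 to -0.75). Pde4b was at -0.87 (-1.28 to -0.44). With SR9009 Sik1 was called lower at -1.77 (-2.20 to -1.34), 1 of 8 against 2.0% of 10406 genes lower and 2.49% higher, while Pde4b was at 0.40 (-0.02 to 0.81). Crem, at -0.96 (-1.33 to -0.58), just missed the size there and met it with a pseudocount of 0.1 (-1.04) and also with quantile normalization. These contrasts share the 4 h groups with those from 0 to 4 h. The set was chosen by a high level of Sik1 in vehicle at 4 h, which by itself favours a lower value at 48 h. Nothing is therefore read from the vehicle counts. Markers moved in these contrasts too. In vehicle 4 of 9 fibroblast (median -0.57), 2 of 8 macrophage (median -0.47) and 2 of 9 cardiomyocyte markers (median -0.16) were called lower. Of 6 smooth muscle markers 1 was called higher (median -0.07). With SR9009 all 9 fibroblast markers (median 0.31) and 7 of 9 cardiomyocyte markers (median 0.34) were above 0. The part of these shifts in the members' differences was not tested.

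SR9009 alone, at 0 h, called none of the 8 members, where 0.499% of 10415 genes were called higher and 0.566% lower. The differences ran from -0.29 (Pde4b, -0.71 to 0.13) to 0.34 (Pde4d, -0.10 to 0.78), and all 8 ranges included 0. Sik1 was at 0.13 (-0.31 to 0.56). Macrophage markers summed to 47.2 FPKM in vehicle and 15.7 with SR9009 at this time, and cardiomyocyte markers to 20456 and 14113. All 8 macrophage (median -0.77), all 9 cardiomyocyte (median -0.54) and all 6 smooth muscle markers (median -0.32) were below 0. So were 7 of 9 fibroblast markers (median -0.17), while 4 of 7 endothelial markers were above 0 (median 0.09). The part of these markers in the members' values was not tested.

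At 4 h of PE SR9009 again called none of the 8, against 0.499% of 10412 genes higher and 1.05% lower, but 7 of 8 members were below 0, as were most genes, with 40.8% above 0. Sik1 was at -0.73 (-1.16 to -0.30), Crem at -0.48 (-0.85 to -0.12) and Pde4b at -0.42 (-0.83 to -0.002), 3 ranges below 0 that did not reach the size. The set was chosen by a high level of Sik1 in vehicle at 4 h, which by itself favours a lower Sik1 value in the group set against it. All members were chosen with earlier results of these data known, so nothing is read from these differences. The median over members was -0.31, beside -0.06 over all genes. At this time 4 of 8 macrophage markers were called lower (median -0.90) and 2 of 6 smooth muscle markers (median -0.56), and all 9 fibroblast and all 9 cardiomyocyte markers were below 0 (medians -0.41 and -0.33). At 48 h 1 of 8 members was called lower, Sik1 at -1.33 (-1.76 to -0.89), with 4.55% of 10408 genes called lower and 2.33% higher. Pde4b lay on the other side, at 0.84 (0.42 to 1.26), short of the size, and Crem at -0.24 (-0.59 to 0.11). At 48 h the summed cardiomyocyte markers were 44372 FPKM in vehicle and 31699 with SR9009, the smooth muscle markers 1920 and 824, and the fibroblast markers 1329 and 1324. The sums rest on a few abundant genes: Actc1, for cardiac actin, alone had 21530 and 9484 FPKM. Gene by gene, the 9 cardiomyocyte markers had a median of 0.10 with 5 above 0, and of 9 fibroblast markers 3 were called higher and 7 were above 0, with a median of 0.66. Of 6 smooth muscle markers 2 were called lower, Acta2 and Cnn1, and 3 were above 0, with a median of -0.34. The part of these markers at 4 and 48 h in the members' differences was not tested.

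The interaction, the PE difference with SR9009 minus that in vehicle, compares the change from 0 h between arms. It cannot tell PE from time in culture. At 4 h it called 0 of 8 members, against 0.077% of 10394 genes higher and 0.346% lower. Sik1 had -0.86 (-1.72 to 0.005), a range that just reached 0, Pde4d -0.67 (-1.53 to 0.19), Crem -0.32 and Pde4b -0.13. At 48 h it called 2 of 8, 1 in each direction, against 3.71% of 10394 genes higher and 5.34% lower. Sik1 had -1.45 (-2.32 to -0.58) and Pde4b 1.13 (0.30 to 1.97). The other 6 lay between -0.14 (Crtc2) and 0.22 (Crtc1). Markers moved with this interaction as well: 6 of 9 fibroblast markers were called higher (median 1.08) and 4 of 9 cardiomyocyte markers (median 0.53), and their part in the values of Sik1 and Pde4b was not tested. In FPKM Sik1 at 48 h of PE was 6.48-fold its 0 h level in vehicle and 2.30-fold with SR9009. For Pde4b these were 1.49-fold and 3.37-fold. Both interactions use vehicle at 0 h, and that at 4 h also uses vehicle at 4 h, the groups that chose the set. For Sik1 that choice by itself favours a negative interaction, so its values here are a description.

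**Figure D3:**
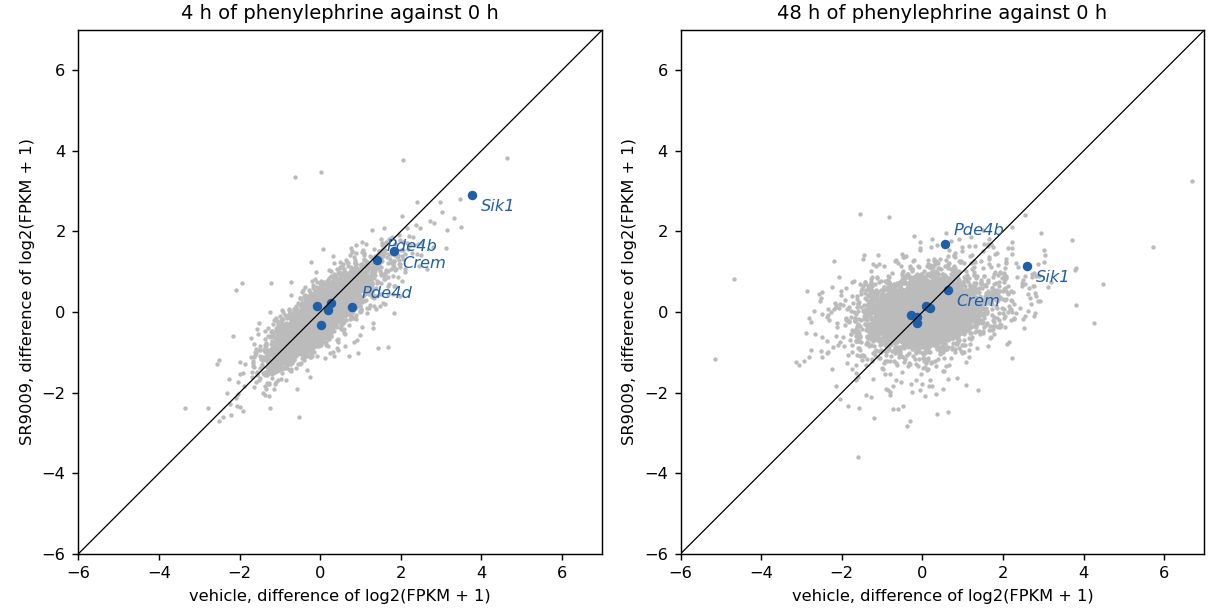
Difference of log2(FPKM + 1) from 0 h in vehicle (horizontal axis) and with SR9009 (vertical axis) at 4 h, left, and 48 h, right, for the genes that averaged 1 FPKM or more (grey points) and the 8 members (blue); the line marks equal differences, and the 2 axes use separate groups. Sik1 lies below the line at both times, at 3.77 and 2.91 at 4 h and 2.59 and 1.14 at 48 h, and Pde4b lies above it at 48 h.

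The genes most like the responding members were looked for among 2286 other genes with a span of at least 1, by Pearson correlation of log2(FPKM + 1) over the 6 groups; each point shares its libraries between genes, and no p is given. Nearest to Sik1 were Hspb7, a heart and muscle small heat shock protein gene (r = 0.998), Fam198b (0.991), Arhgef3 (0.988), Pdlim5, a Z-disc protein gene (0.987), and Nfkbiz, an NF-κB regulator gene (0.986). Hspb7 ran at 431, 1253 and 867 FPKM in vehicle and 443, 1074 and 618 with SR9009, the same order of groups as Sik1 except that its span was smaller. Nearest to Crem were Nr4a3 (0.996), Usp53 (0.996), Usp46 (0.995), Mypn (0.995) and Nr4a1 (0.992), which include 2 orphan receptor genes known to answer to CREB. Nr4a1 ran at 4.36, 52.5 and 10.4 FPKM in vehicle and 4.55, 26.8 and 10.2 with SR9009. Nearest to Pde4b were Adamts9 (0.971), Acadm (0.959), Uqcrh (0.957), Cacnb2 (0.947) and Ncald (0.945), of which Acadm, for a fatty acid oxidation enzyme, had 132 FPKM at 48 h in vehicle and 173 with SR9009. With 6 points high values are common: 46 genes reached 0.95 with Sik1, 45 with Crem and 3 with Pde4b. Sik1 and Crem correlated at 0.95 with each other, Sik1 and Pde4b at 0.75.

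Around the members, 7 lists of pathway genes were counted by the same rule. Like the members, these lists were drawn up with earlier results of these data known. Of 22 genes known as CREB targets, 17 averaged 1 FPKM or more and were counted. At 4 h in vehicle 8 of the 17 were called higher and 0 lower, where 2.75% and 2.32% of all genes were, with a median of 0.88 beside -0.02 over all genes. The orphan receptor genes Nr4a3 at 3.46 and Nr4a1 at 3.32 led, followed by Irs2, an insulin signalling adaptor, at 2.48 (2.07 to 2.89) and Fos at 2.33. With SR9009 7 of 17 were called higher at 4 h and 0 lower, against 1.83% and 2.65% of all genes, with Nr4a3 at 2.81 (2.39 to 3.23), Nr4a1 at 2.32, Irs2 at 2.08 and the G-protein regulator Rgs2 at 2.05. Of the 9 not called in vehicle at 4 h, the immediate early gene Egr1 had 15.5 FPKM at 0 h and 18.2 at 4 h.

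At 48 h 9 of 17 CREB targets were called higher in vehicle and 0 lower, against 4.87% and 3.96% of all genes, with a median of 1.01. Ptgs2, for an inducible prostaglandin synthase, was at 1.75, the neurotrophin gene Bdnf at 1.67 (1.26 to 2.09), the EGF receptor ligand gene Areg at 1.61 (0.92 to 2.34) and Nr4a3 at 1.51. With SR9009 2 of 17 were called higher, Nr4a3 at 1.09 and Nr4a1 at 1.01, and 1 lower, Cited2 at -1.03 (-1.43 to -0.62), against 1.26% and 1.16% of all genes. SR9009 against vehicle at 48 h called 4 of 17 lower and 0 higher, against 4.55% and 2.33% of all genes, with a median of -0.63 beside -0.04 over all genes: Bdnf at -2.21 (-2.65 to -1.80), from 7.97 down to 0.934 FPKM, Ptgs2 at -2.04, Areg at -1.55 and Nfil3 at -1.09. The interaction at 48 h called 5 of 17 lower, where 5.34% of all genes were. It called 1 of 17 higher, the coactivator gene Ppargc1a at 1.19 (0.37 to 2.01), a share near the 3.71% of all genes. At 0 h SR9009 called none of the 17, with a median of 0.03.

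**Figure D4:**
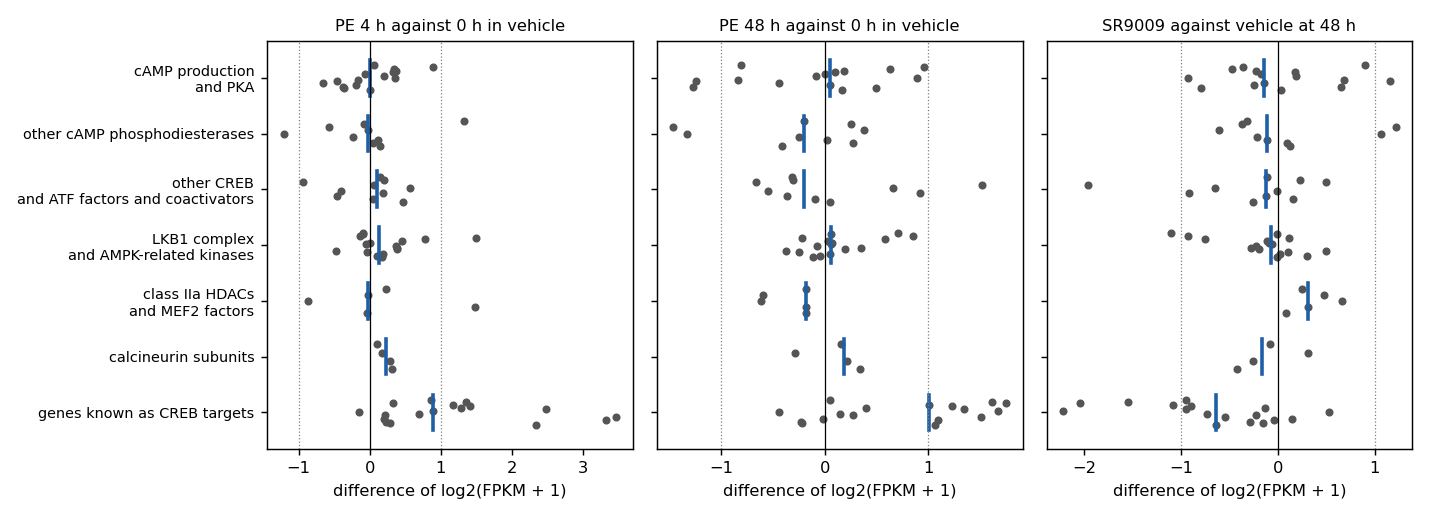
Differences of log2(FPKM + 1) (horizontal axes) for the measured genes of 7 pathway lists (rows) in 3 comparisons: 4 h and 48 h of phenylephrine (PE) against 0 h in vehicle, and SR9009 against vehicle at 48 h; each point is a gene, blue bars are list medians and dotted lines mark 1 and -1. CREB targets have medians of 0.88, 1.01 and -0.63, and the other lists have medians between -0.20 and 0.32.

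Upstream of CREB, of 15 measured genes for cyclic AMP production and PKA none was called at 4 h in vehicle, and 2 were called lower at 48 h, where 3.96% of all genes were. Adcy5, one of the main cardiac adenylyl cyclases, had 63.2, 45.6 and 26.2 FPKM in vehicle at 0, 4 and 48 h and 46.0, 32.5 and 59.6 with SR9009. Its difference at 48 h in vehicle was -1.24 (-1.64 to -0.84), and SR9009 against vehicle at that time was 1.16 (0.75 to 1.56), an interaction of 1.61 (0.78 to 2.43). The lower-level cyclase gene Adcy1 was at -1.27 (-1.78 to -0.77) at 48 h in vehicle, and its interaction was 1.33. Pkia, for an inhibitor of PKA, was called higher with SR9009 at 4 h (1.20, 0.83 to 1.56) and 48 h (1.27, 0.90 to 1.63), with 104, 239 and 252 FPKM at 0, 4 and 48 h. It was 1 of 15 called higher at each time, with 0 lower, against 1.83% and 1.26% of all genes higher. In vehicle it stood higher at each time, at 167, 310 and 324 FPKM, with differences of 0.89 and 0.95 that missed the size, and interactions of 0.31 and 0.32 that were not called. A second PKA inhibitor gene, Pkig, had an interaction of 1.02 (0.20 to 1.84) at 48 h. Adcy5, Adcy1 and Pkig were the 3 of 15 called higher by that interaction, with 0 lower, against 3.71% and 5.34% of all genes. The catalytic subunit gene Prkaca stayed between 194 and 280 FPKM.

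Among 9 other measured cyclic AMP phosphodiesterase genes, 1 was called higher and 1 lower at 4 h in vehicle, against 2.75% and 2.32% of all genes. Pde10a went from 2.09 to 6.78 FPKM, a difference of 1.33 (0.89 to 1.79), and was back at 1.69 at 48 h; with SR9009 it went from 1.66 to 4.78, a difference of 1.12. Pde4a, of the same subfamily as the members, went the other way, from 13.6 to 5.29 FPKM, a difference of -1.21 (-1.64 to -0.78), and was at -1.33 at 48 h. With SR9009 Pde4a had 6.61, 4.07 and 11.1 FPKM, and its interaction at 48 h was 2.00 (1.18 to 2.82). Pde7b was at -1.46 (-2.10 to -0.86) at 48 h in vehicle, with an interaction of 1.48 (0.34 to 2.67). Pde4a and Pde7b were the 2 of 9 called higher by the interaction at 48 h, with 0 lower, against 3.71% and 5.34% of all genes. The median of the 9 was 0.06, with 5 above 0 and 4 below. Of the members, Pde4b was called higher by the interaction at 48 h and Pde4d, at -0.09, was not called.

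In the LKB1 and AMPK-related group, relatives of the SIKs, 1 of 16 measured genes was called higher at 4 h in vehicle and 0 lower, a count near the 2.75% and 2.32% of all genes. Nuak2, a stress-induced AMPK-related kinase gene, had 6.55 FPKM at 0 h, 20.3 at 4 h and 5.48 at 48 h in vehicle, a difference of 1.50 (1.07 to 1.92) at 4 h. With SR9009 it had 5.08, 8.94 and 6.03, and SR9009 against vehicle at 4 h was -1.10 (-1.51 to -0.69). SR9009 against vehicle at 48 h called 1 of 16 lower and 0 higher, a count near the 4.55% and 2.33% of all genes. It was Melk, a kinase gene of dividing cells, at -1.11, with 5.18 FPKM in vehicle and 1.87 with SR9009. Stk11, which encodes LKB1, lay between 39.6 and 48.7 FPKM. The 16 genes had a median of 0.13 at 4 h in vehicle and 0.02 with SR9009.

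Of 5 measured genes for the SIK substrates of the class IIa deacetylase family and their MEF2 partners, Hdac5 alone was called at 4 h. It was called higher in both arms, against 2.75% of all genes in vehicle and 1.83% with SR9009. The median of the 5 was -0.03 in vehicle and -0.01 with SR9009, with 3 below 0 in each arm. Hdac5 thus stood apart from the list. It had 45.3, 128 and 39.8 FPKM in vehicle and 34.4, 96.0 and 49.8 with SR9009, differences at 4 h of 1.47 (1.06 to 1.89) and 1.45 (1.05 to 1.86). Hdac5 therefore peaked at 4 h in both arms, as Sik1 and Crem did. Hdac9 had an interaction of 1.30 (0.49 to 2.12) at 48 h. Among 4 measured calcineurin subunits, which dephosphorylate CRTC proteins, none was called in any comparison. Of 10 measured relatives and coactivators of CREB, 1 was called higher at 48 h in vehicle and 0 lower, a count near the 4.87% and 3.96% of all genes. It was Creb5, from 1.37 to 5.79 FPKM (1.52, 1.13 to 1.92). SR9009 against vehicle at 48 h called 1 lower and 0 higher, near the 4.55% and 2.33% of all genes. This was again Creb5, at 0.751 FPKM (-1.96, -2.36 to -1.56). Medians of the 10 were -0.20 and -0.12 in these comparisons.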

How the data were processed

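Messenger RNA was measured in 18 libraries of neonatal rat ventricular myocytes in 6 groups of 3, prepared with a stranded kit per the labels' protocols and grouped by sample title. The authors deposited FPKM values and bounds per group, made from its 3 libraries; which confidence level and scaling they used is not given in the sources used here. Per the submitters' processing notes, the tools were FastQC, Trim Galore, TopHat and Cuffdiff, on build rn6. Values per library were not used here, so the limma fit was not run and precision rests on the bounds.

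Genes averaging 1 FPKM or more over groups were compared on log2(FPKM + 1) by the size rule. No difference was taken against a listed 0 or from the 172 values outside their own bounds. Members and lists were chosen with earlier results of these data known. Named genes are the members, up to 4 called genes per list and comparison, and the 5 nearest in pattern; others serve as reference levels and were chosen after their values were seen. Alternatives changed the pseudocount, filter, scaling and size. Table starts were read as counted from 0, because lengths then equal those of RefSeq GRCr8 for 2074 genes, against 277. Promoter windows were matched by symbol for all 10 members; protein features were not analysed here. Analysis used Python 3.11.15 with pandas 2.3.3 and numpy 2.4.6.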

Additional observations from a re-analysis of the deposited data

How the results depend on the processing

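Every call of a member was kept, in the same direction, with a pseudocount of 0.1, without the filter on low values, with FPKM rescaled to equal sums, with median centring, with quantile normalization and with the bounds alone. The number of members called moved in 1 comparison under a scaling or pseudocount: for 48 against 4 h of PE with SR9009 it was 1 as reported and 2 with a pseudocount of 0.1, with quantile normalization and with the bounds alone. With the bounds alone it was also 4 (3 as reported) for 4 h of PE in vehicle, 3 (2 as reported) for 48 h with SR9009, 3 for 48 h of PE in vehicle, 4 for 48 against 4 h in vehicle, 3 for SR9009 at 4 h and 2 for SR9009 at 48 h. Over all genes the bounds alone called 2918 at 4 h of PE in vehicle (529 as reported), 3319 at 48 h (919) and 2825 for 48 against 4 h (648). In the SR9009 arm they called 2853 (466), 1983 (252) and 2758 (467). For SR9009 against vehicle they called 1025 (111), 1507 (161) and 2974 (717) at 0, 4 and 48 h, and 89 (44) for the interaction at 4 h; fewer conditions make these counts larger by construction. With a pseudocount of 0.1, 255 genes were called for SR9009 at 4 h. Rescaling to equal sums moved the median gene by -0.18 and -0.20 at 4 and 48 h of PE in vehicle, by -0.12 at 4 h with SR9009, by 0.10 for SR9009 at 48 h and by 0.11 for the interaction at 48 h. The split of higher and lower calls then was 198 and 407, 341 and 666, 147 and 415, 341 and 391, and 512 and 442, against 287 and 242, 507 and 412, 190 and 276, 243 and 474, and 386 and 555 as reported. It was 111 and 165 (131 and 121) for 48 h with SR9009, and for SR9009 at 4 h 68 and 91 with median centring and 61 and 79 with quantile normalization (52 and 109). No paired analysis was possible because the columns combine the 3 libraries of a group and carry no replicate number; leaving out a replicate could not be run for the same reason. The depth of the libraries is unknown, and the bounds are the only measure of error.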
